A study of Caenorhabditis elegans with 6 samples.

Results

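The C-type lectin genes of Caenorhabditis elegans were taken as every row of the deposited expression table whose RefSeq symbol was clec followed by a number. There were 239 such genes among 20894 rows, all annotated as protein coding. RNA came from whole animals labelled as adults that had fed on Escherichia coli OP50. The control was the wild-type strain N2 and the other group was the mutant bcf-1(ylf1), with 3 libraries each that the design calls biological replicates. No age beyond adult is given, and the nature of the ylf1 lesion is not described. Values are read as FPKM, fragments counted per kilobase of a transcript and relative to the library total, and their sequencing depth is unknown. The targeted gene was at 374, 412 and 499 FPKM in the N2 libraries and at 63.7, 72.1 and 60.01 FPKM in the mutant libraries. Reads of bcf-1 may be shared with its paralogue gfi-1, which was 5.97-fold lower in the mutant.

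C-type lectin-like domain proteins share a fold first described in animal proteins that bind sugars with the help of calcium. In the worm most are predicted to be secreted, many are made in the intestine, and sets of their transcripts change when the animal meets bacterial pathogens. A few have tested roles in resistance to infection, and only some members keep the residues that bind calcium and sugar. The series title describes BCF-1 as an intestinal protein that binds bacteria, and the comparison asks how transcripts of this family differ in its mutant.

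The family sum was slightly higher in the mutant, and its make-up differed between the genotypes. Summed over the 239 members, the N2 libraries held 3902, 4356 and 4366 FPKM and the mutant libraries 4674, 4760 and 4762 FPKM. The mutant libraries were all above the N2 libraries, and their mean was 1.13-fold higher. The family made up 0.581% to 0.635% of the N2 library totals and 0.709% to 0.721% of the mutant totals. A single gene, clec-63, held 23.8%, 29.4% and 31.7% of the family sum in N2 and 48.7%, 53.8% and 47.4% in the mutant. Without clec-63 the direction turned: the other 238 members summed to 2972, 3077 and 2981 FPKM in N2 and to 2399, 2200 and 2503 FPKM in the mutant, 0.787 times the N2 mean. In an exact two-sided permutation test of each of these sums p was 0.1, the smallest that 3 against 3 libraries allow. clec-63 was set apart after its values were seen. The sum without it is weighted to abundant members: clec-50, clec-150, clec-83 and clec-48 went from means of 615, 247, 236 and 161 to 306, 190, 58.6 and 47.8 FPKM. It does not mean that most members were lower, since in the tests below 49 rose and 29 fell.

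**Figure D1:**
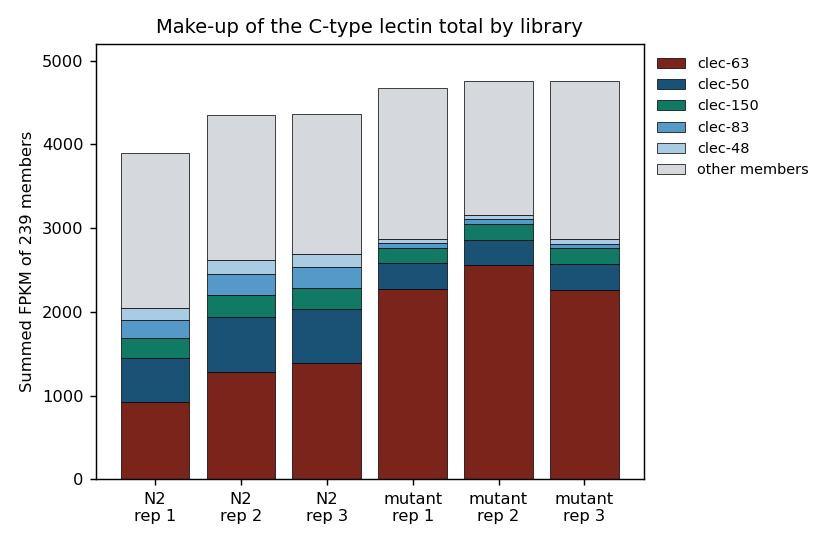
Summed FPKM (y axis) of the 239 C-type lectin genes in each of the 6 libraries (x axis), split into the 5 genes with the highest N2 means and all other members. clec-63 grows from 930 to 1385 FPKM in the N2 libraries to between 2259.5 and 2560 FPKM in the mutant libraries, while the segments of clec-50, clec-150, clec-83 and clec-48 shrink.

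Levels within the family spanned several orders of magnitude. clec-63 was the most abundant member in both genotypes, followed in N2 by clec-50, clec-150, clec-83 and clec-48, and in the mutant by clec-50, clec-150, clec-47 and clec-1. In N2 the clec-150 libraries (234, 261 and 245 FPKM) overlapped those of clec-83 (212, 247 and 249 FPKM), so their order does not exceed their spread. In the mutant the same held for clec-47 and clec-1. There, clec-47 lay at 118.6, 85.4 and 166 FPKM and clec-1 at 109, 82.5 and 116 FPKM. At the other end, 41 members were listed at 0 in every library, and another 98 stayed too low to be tested, with no single value above 1.90 FPKM. Members at 1 FPKM or more numbered 82 to 85 per N2 library and 96 to 101 per mutant library, and those at 10 FPKM or more 41 or 42 per N2 library and 41 to 43 per mutant library. Those at 100 FPKM or more numbered 6 to 8 per N2 library and 3 to 5 per mutant library.

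Single genes were tested with limma on log2(FPKM + 1) over the 13576 genes that reached 1 FPKM in 3 or more libraries, and adjusted by the Benjamini-Hochberg method over all of them. A gene is said to rise or fall where its adjusted p was under 0.05, and each log2 change is mutant minus N2 after the added 1, which makes folds of low genes look smaller. Of the 239 members, 100 passed the filter, and 49 of them rose, 29 fell and 22 did not pass the test. Among all tested genes 34.6% rose and 15% fell. The genotypes did not overlap in 50 members with the mutant above and in 30 with the mutant below, against 40.4% and 18% of all tested genes. Changes of at least 1 log2 unit were called upward in 22 members and downward in 12, where all tested genes gave 11.4% and 6.75%.

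Some of these counts follow from the filter. There were 14 members that reached 1 FPKM in mutant libraries alone and 2 that did so in N2 libraries alone, and such genes had to differ. Among the 84 members that reached 1 FPKM in both genotypes, 35 rose (41.7%) and 27 fell (32.1%), while of all genes of that kind 32.5% rose and 14.5% fell. With no filter, 31.8% of 198 members with any value above 0 rose and 17.2% fell, beside 27% and 11.6% of all genes.

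The median log2 change of the tested members was 0.41, and it was 0.24 over all tested genes, so 0.18 relative to all genes. Both medians moved with the scaling of the libraries. Median-ratio scaling shifted the all-gene median by -0.25 and left 38 members higher and 39 lower, with 22% and 23.7% of all genes. Quantile normalisation shifted it by -0.16 and left 37 higher and 33 lower, with 24% and 20.6% of all genes. Of the 49 members that rose, 38 also rose under the first scaling and 37 under the second. Of the 29 that fell, 29 and 28 did so, and none of the 78 was called in the opposite direction under either. The median-ratio and quantile counts have a lower share of rises than the reported fit, so the excess of rises over falls depends on the scaling.

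**Figure D2:**
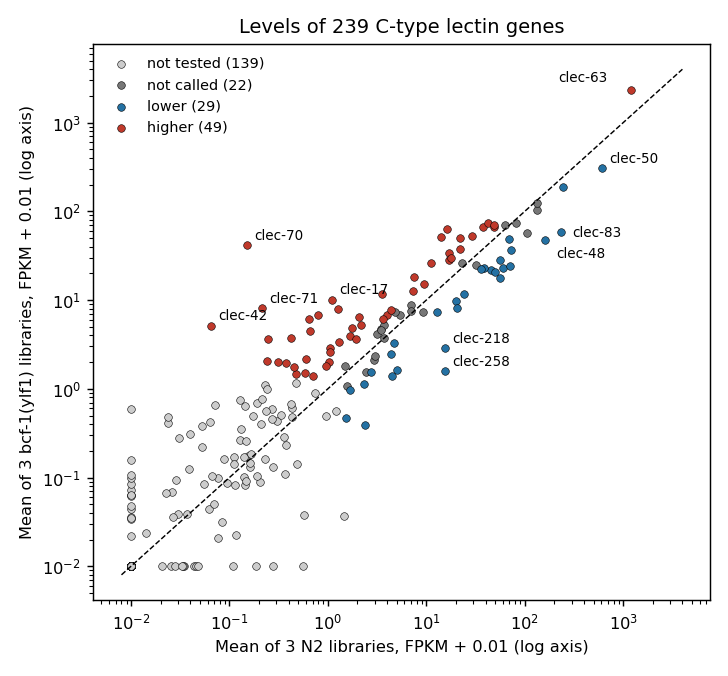
Mean FPKM plus 0.01 in 3 N2 libraries (x axis) against 3 mutant libraries (y axis), both on log axes, for each of 239 C-type lectin genes, coloured by the limma result. The dashed line marks equal means. clec-70, clec-71 and clec-42 lie far above it from N2 means under 1 FPKM, and clec-83, clec-48, clec-218 and clec-258 lie below it.

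The members that rose were mostly of low or middle level and those that fell reached into the highest. Of 55 tested members with a mean over all libraries from 1 to 10 FPKM, 30 rose and 10 fell. Of 36 from 10 to 100 FPKM, 17 rose and 14 fell, and of 7 above 100 FPKM, 1 rose (clec-63) and 4 fell. Among all tested genes 45% were higher and 13% lower in the first of these ranges, 28.1% and 14.9% in the middle one, and 13.4% higher and 25.9% lower in the last. All tested genes thus had the same trend over these ranges. Rises in the first range include members that passed the filter through the mutant libraries alone, such as clec-71, clec-42 and clec-31. Those had to differ, so part of the pattern follows from the filter.

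The largest rise was of clec-70 (chromosome IV, 3932708 to 3936307, WBcel235). It lay at 0.137, 0.118 and 0.171 FPKM in N2 and at 42.5, 36.4 and 44.9 FPKM in the mutant. The mutant mean was 291-fold higher, with a log2 change of 5.21 (SE 0.14). Its neighbour clec-71 lay at 0.0812, 0.240 and 0.292 FPKM in N2 and at 8.16, 7.98 and 8.03 FPKM in the mutant, a log2 change of 2.91 (SE 0.13). For both genes every mutant library lay far above every N2 library. Both passed the filter through the mutant libraries alone, so their values are given as a description, without a test.

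On chromosome I, clec-17 (12430028 to 12431464) lay at 0.838, 1.24 and 1.23 FPKM in N2 and at 10.6, 10.3 and 9.27 FPKM in the mutant. Its mean was 9.14-fold higher (log2 change 2.40, SE 0.15, limma adjusted p = 7.85e-06). clec-70 and clec-71 were close to absent in N2, whereas clec-17 was present at a low level.

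Members with a known part in defence against Bacillus thuringiensis include clec-42, clec-41 and clec-4. clec-42 was listed at 0 in N2 replicate 2 and at 0.0789 and 0.0871 FPKM in the other N2 libraries, against 5.14, 5.51 and 4.81 FPKM in the mutant (log2 change 2.54). It passed the filter through the mutant libraries alone, and no test is given for it. clec-41 was at 54.3, 42.8 and 48.2 FPKM in N2 and at 71.4, 69.8 and 67.2 FPKM in the mutant (log2 change 0.52, limma adjusted p = 0.00841). The genotypes did not overlap for either gene, but the call of clec-41 was lost after median-ratio scaling (adjusted p = 0.107). clec-4 fell from 12.8 ± 2.29 to 7.24 ± 0.975 FPKM (SD, n = 3 each; limma adjusted p = 0.00696).

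clec-85 and clec-67, whose expression is known to depend on the PMK-1 p38 MAP kinase, both rose. clec-85 went from 0.827, 1.81 and 1.17 FPKM in N2 to 7.10, 8.06 and 8.62 FPKM in the mutant (log2 change 2.00, SE 0.18, limma adjusted p = 4.97e-05). clec-67 was more abundant, at 17.2, 24.6 and 24.2 FPKM in N2 and 51.4, 52.1 and 47.3 FPKM in the mutant (log2 change 1.17, SE 0.16, limma adjusted p = 0.00037). clec-85 shares exon sequence on the same strand with Y54G2A.40, and the sources used here do not say how such reads were divided.

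clec-60 and clec-61, known for transcripts that rise in the gut during bacterial infection, rose by less. clec-60 lay at 5.44, 3.20 and 4.50 FPKM in N2 and at 8.34, 6.01 and 9.002 FPKM in the mutant (log2 change 0.71, limma adjusted p = 0.0194). clec-61 was low, at 0.543, 0.527 and 1.01 FPKM in N2 and 1.51, 1.37 and 1.33 FPKM in the mutant (log2 change 0.52, limma adjusted p = 0.0142). Neither pair of groups overlapped. The calls were lost under both scalings (clec-60 adjusted p = 0.0591 and 0.109, clec-61 adjusted p = 0.0734 and 0.39), without N2 replicate 2 (0.0622 and 0.0525) and without mutant replicate 1 (0.075 and 0.0629), and that of clec-60 also without mutant replicate 3 (0.0716).

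clec-49, needed for normal resistance to Serratia marcescens, was among the largest falls. It lay at 47.1, 61.4 and 59.0 FPKM in N2 and at 19.8, 16.96 and 16.6 FPKM in the mutant, a 3.13-fold lower mean (log2 change -1.59, SE 0.15, limma adjusted p = 5.20e-05). clec-39, linked to the same infection, was listed at 0 in all N2 libraries and in 2 mutant libraries, with 0.0720 FPKM in mutant replicate 1. clec-38, known for a part in axon growth, was at 0.253 ± 0.0480 FPKM in the mutant and at most 0.272 FPKM in N2. Neither clec-39 nor clec-38 could be tested.

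The other members among the 10 largest rises were clec-64, clec-180, clec-78, clec-72 and clec-31. clec-180 lay at 10.01, 17.9 and 20.7 FPKM in N2 and at 66.1, 64.01 and 60.6 FPKM in the mutant (log2 change 1.97, SE 0.23, limma adjusted p = 0.000182). clec-72 lay at 11.1, 16.03 and 15.1 FPKM in N2 and at 50.1, 51.0 and 52.6 FPKM in the mutant (log2 change 1.81, SE 0.15, limma adjusted p = 3.50e-05). These were the rises with substantial RNA in both genotypes. clec-64, clec-78 and clec-31 had N2 means of 0.629, 0.239 and 0.412 FPKM and mutant means of 6.17, 3.62 and 3.74 FPKM, so they passed the filter through the mutant libraries alone.

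The largest falls on the log2 scale were of clec-258 and clec-218, both on chromosome V. clec-258 lay at 12.7, 19.6 and 13.7 FPKM in N2 and at 2.43, 0.798 and 1.48 FPKM in the mutant, 9.80-fold lower (log2 change -2.70, SE 0.25, limma adjusted p = 5.78e-05). clec-218 lay at 19.99, 14.1 and 11.99 FPKM in N2 and at 3.20, 2.78 and 2.64 FPKM in the mutant (log2 change -2.05, SE 0.19, limma adjusted p = 5.82e-05). Both were moderate in N2 and close to 1 to 3 FPKM in the mutant.

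Larger amounts of RNA were lost from abundant members. clec-83 lay at 212, 247 and 249 FPKM in N2 and at 61.9, 62.9 and 51.0 FPKM in the mutant (log2 change -1.99, limma adjusted p = 1.07e-05). clec-48 lay at 147, 175 and 161 FPKM in N2 and at 46.3, 47.8 and 49.3 FPKM in the mutant (log2 change -1.72, limma adjusted p = 1.16e-05). clec-50, next to clec-49, lay at 526, 663 and 656 FPKM in N2 and at 307, 298 and 312 FPKM in the mutant (log2 change -0.999, limma adjusted p = 0.000233). clec-83 and clec-48 were picked among members whose genotypes did not overlap, so their separation is a property of the choice. The genotypes did not overlap for clec-50 either. Each of these 3 kept its call in all 14 alternatives. clec-83 overlaps Y54G2A.7 on the opposite strand, and whether counting used strand is not stated.

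The remaining largest falls were of clec-5, clec-66, clec-233, clec-209 and clec-82, with log2 changes from -1.53 to -1.23. clec-233 passed the filter through the N2 libraries alone and so had to differ, and no test is given for it. clec-5 fell from 71.6 ± 3.24 to 24.1 ± 1.74 FPKM and clec-209 from 50.1 ± 5.14 to 20.6 ± 4.79 FPKM. clec-150 fell by less, from 247 ± 13.4 to 190 ± 5.69 FPKM (log2 change -0.38, limma adjusted p = 0.0159). Its call was lost after quantile normalisation (0.264), with the replicate number as a block (0.068), without N2 replicate 2 (0.0501) and without mutant replicate 1 (0.0893) or 3 (0.0564). clec-1 and clec-47 did not pass the test (limma adjusted p = 0.0811 and 0.671), though clec-1 fell after median-ratio scaling (0.00479).

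**Figure D3:**
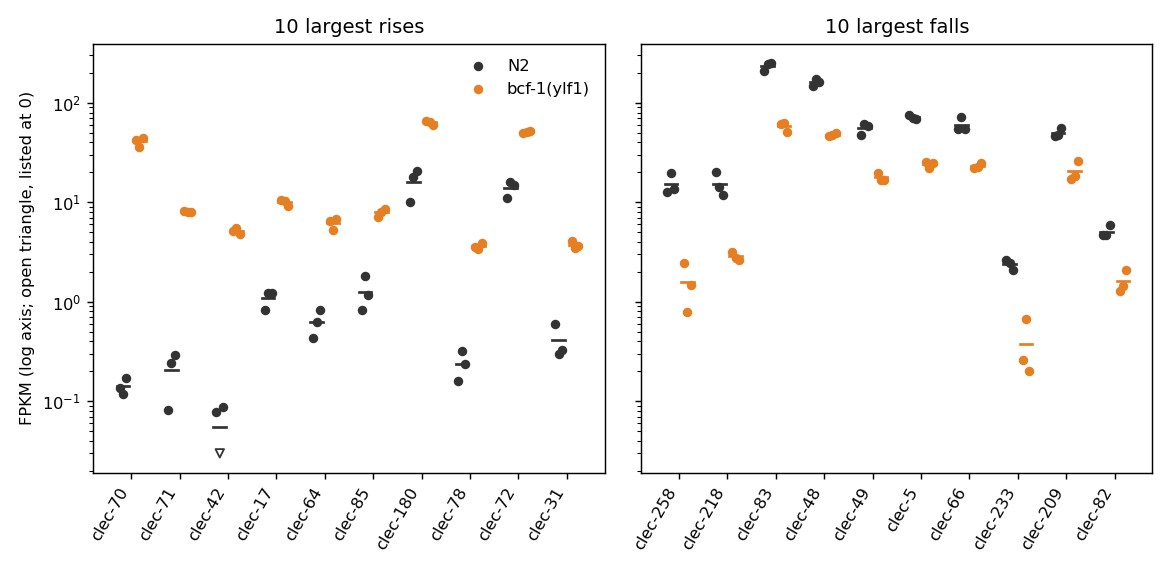
FPKM per library on a log axis (y axis) for the 10 largest rises and the 10 largest falls (x axis), N2 in dark and bcf-1(ylf1) in orange, with a short line at each mean. An open triangle marks a library listed at 0, seen for clec-42 in N2. The genes were chosen among those whose genotypes did not overlap, so the separation of the points is a property of the choice.

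The called members without a place among the largest changes or a published role are given here by values chosen after they were seen. clec-172 lay at 0.807, 0.639 and 0.517 FPKM in N2 and at 4.62, 3.17 and 5.53 FPKM in the mutant (log2 change 1.70), and its exons overlap those of txt-4. clec-53 lay at 10.99, 11.4 and 10.98 FPKM in N2 and at 29.0, 19.4 and 30.4 FPKM in the mutant (log2 change 1.14). Both had groups that did not overlap, but clec-172 passed the filter through the mutant libraries alone and so had to differ. Among the smaller rises, clec-80 lay at 37.3, 46.8 and 42.3 FPKM in N2 and at 73.4, 64.3 and 83.3 FPKM in the mutant, and clec-51 had the smallest called rise, with a log2 change of 0.43.

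Among the smaller falls, clec-265 lay at 59.2, 51.3 and 58.3 FPKM in N2 and at 29.9, 28.7 and 26.2 FPKM in the mutant (log2 change -0.97). clec-230 lay at 19.7, 27.4 and 13.8 FPKM in N2 and at 8.84, 6.35 and 8.98 FPKM in the mutant (log2 change -1.20), with a wide spread in N2. Apart from clec-140, overlap between the genotypes was seen in clec-247 and clec-238 among the called members. Of the 22 members that did not pass the test, 5 had groups that did not overlap, namely clec-90, clec-3 and clec-8 with the mutant above and clec-221 and clec-205 with the mutant below. The tightest of them, clec-205, lay at 3.11, 3.09 and 2.91 FPKM in N2 and at 2.41, 2.43 and 2.21 FPKM in the mutant.

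Gene size differed between the classes of members. The median exonic length was 1387 bases for members that rose, 1045 for those that fell, 1258 for those that did not pass the test and 900 for the 139 not tested. Among the 139 untested members, the mutant libraries all lay above the N2 libraries in 22 (15.8%) and all below in 11 (7.91%), near the 17.1% and 6.2% of all 7318 untested genes. Over the family, 15 members were listed at 0 in every N2 library but above 0 in a mutant library, and 13 were listed at 0 in every mutant library but above 0 in an N2 library. These are 6.28% and 5.44% of members, beside 4.82% and 2.73% of all genes.

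Many members sit side by side in the genome. With runs defined as members whose starts lie within 10 kb of the next, 148 of the 239 members fell into 44 runs. Of 53 members on chromosome IV 29 were tested, and 18 rose and 7 fell, where 37.2% and 13.8% of all tested genes of that chromosome did so. On chromosome V 36 of 85 were tested, and 13 rose and 14 fell, beside 32.4% and 20.1% of its tested genes. On chromosome II 21 of 48 were tested, and 13 rose and 4 fell, beside 35.1% and 13.9%. The rises on these chromosomes include members that passed the filter through the mutant libraries alone and so had to differ. Among them are clec-70 and clec-71 on chromosome IV, clec-31 and clec-42 on V and clec-64 on II. Chromosomes I, III and X held 6, 6 and 2 tested members. Members are not independent of each other here, since close copies can share reads, and sequence identity was not computed.

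The run with clec-70 and clec-71 held 11 members over 53.6 kb of chromosome IV (3922165 to 3975721). Its 7 tested members were called higher: clec-67, clec-72, clec-73, clec-76 and clec-79, present in both genotypes, and clec-70 and clec-71, which passed the filter through the mutant libraries alone. Of all genes at 1 FPKM or more in both genotypes 32.5% rose. The sizes differed within it, from a log2 change of 5.21 for clec-70 to 0.70 for clec-79. The call of clec-79 (adjusted p = 0.0243) was lost in 5 of 14 alternatives, with adjusted p-values up to 0.087. The untested clec-174 lay at 0.195 to 0.253 FPKM in N2 and at 0.839 to 1.44 FPKM in the mutant, and clec-75 was listed at 0 in every N2 library and at 0.0811 to 1.18 FPKM in the mutant. clec-74 went the other way, at 0.226 to 0.346 FPKM in N2 and 0.0546 to 0.162 FPKM in the mutant, and clec-68 overlapped at under 0.16 FPKM.

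The longest run held 13 members over 30.7 kb of chromosome V (16839121 to 16869840), all at most 1.30 FPKM on average in N2. The 5 tested members, clec-36, clec-26, clec-37, clec-31 and clec-28, rose, by 0.68 to 1.75 log2 units. clec-31 lay at 0.605, 0.300 and 0.331 FPKM in N2 and at 4.06, 3.48 and 3.68 FPKM in the mutant. All 5 rises are of genes near the filter's limit, and 4 of the 5 passed it in the mutant alone, so those 4 had to differ. Of all tested genes 34.6% rose. After quantile normalisation clec-36 and clec-28 lost their calls (adjusted p = 0.0797 and 0.107). Across all 13 members the mutant libraries lay above the N2 libraries in 11, and clec-25 and clec-32 overlapped. The mutant libraries lay above in 40.4% of all tested genes and in 17.1% of all untested genes.

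Other runs were split. In the run of 5 members on chromosome II (12893062 to 12906644), clec-62, clec-63 and clec-64 rose, clec-65 did not pass the test (limma adjusted p = 0.323) and clec-66 fell. clec-63 lay at 930, 1279 and 1385 FPKM in N2 and at 2274, 2560 and 2259 FPKM in the mutant (log2 change 0.999, SE 0.16, limma adjusted p = 0.00096). clec-66, in the same run, lay at 54.2, 72.4 and 54.5 FPKM in N2 and at 22.3, 22.5 and 24.7 FPKM in the mutant (log2 change -1.33, SE 0.15, limma adjusted p = 0.00013). clec-65 fell after median-ratio scaling (adjusted p = 0.0246).

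On chromosome IV, clec-82, clec-83 and clec-84 fell and clec-85, which starts 8.41 kb beyond clec-84, rose. clec-84 went from 38.4 ± 5.64 to 22.9 ± 0.411 FPKM and clec-82 from 5.09 ± 0.730 to 1.61 ± 0.443 FPKM, while clec-85 rose as given above. clec-245, clec-246 and clec-42 on chromosome V were all higher in every mutant library, with clec-245 too low to test. clec-246 and clec-42 passed the filter through the mutant libraries alone. clec-49 and clec-50 both fell, and so did clec-5, whose neighbour clec-6 lay at 0.547 to 1.32 FPKM in N2 and 0.254 to 0.694 FPKM in the mutant and was not tested.

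Over the whole family there were 32 pairs of tested members that follow each other within 10 kb, and both genes were called in 23. In 13 of these pairs both rose, in 5 both fell and in 5 they went opposite ways (21.7%). Among all tested genes, 35.0% of such pairs with both genes called went opposite ways, 48% both rose and 17% both fell. The pairs where both rose include members that passed the filter through the mutant libraries alone and so had to differ. Among them are clec-70, clec-71, clec-31, clec-246 and clec-42. The shares were not recomputed without such members, and they are not read as agreement between neighbours. Members outside the runs named above made up 4 of the opposite pairs: clec-169 with clec-170, clec-51 with clec-52, and clec-227 with both clec-57 and clec-56. These were chosen after their values were seen.

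**Figure D4:**
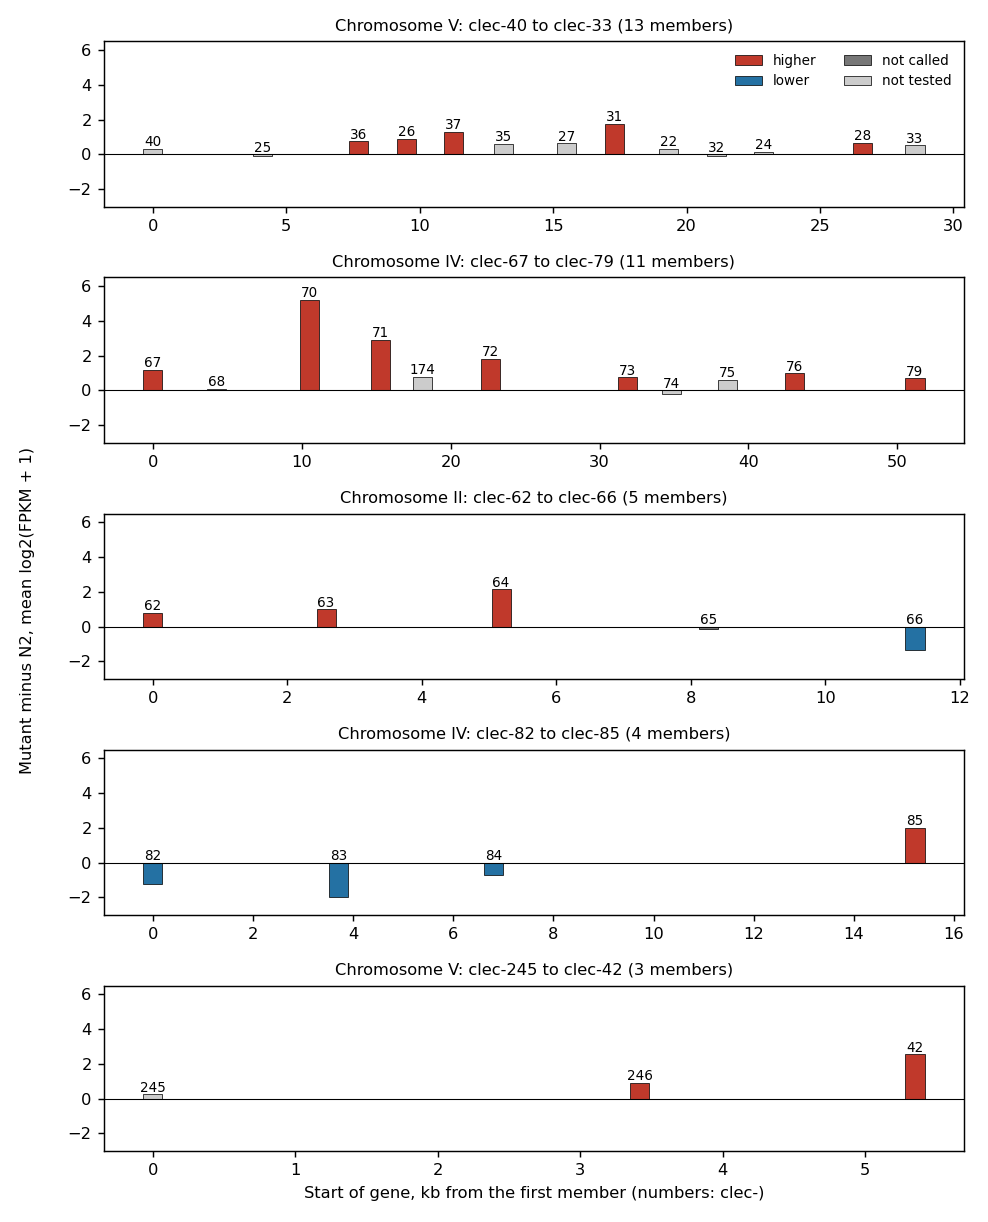
Difference between mutant and N2 means of log2(FPKM + 1) (y axis) against the start of each gene in kb from the first member (x axis), for the 5 runs of at least 3 neighbouring members that hold 1 of the largest changes. Red bars rose, blue bars fell, dark grey bars did not pass the test and pale bars were too low to test. The runs of 13 and 11 members hold no blue bar, while those of clec-62 to clec-66 and clec-82 to clec-85 hold bars of both directions.

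Some values rest on N2 replicate 1. It exceeded both other N2 libraries by more than 1.5 times in 8 tested members and lay under both by that factor in 5, where N2 replicate 2 did so in 5 and 5 and N2 replicate 3 in 2 and 3. Over all tested genes N2 replicate 1 exceeded both others in 8.91%, replicate 2 in 1.61% and replicate 3 in 1.52%, and they lay under both others in 2.91%, 4.49% and 2.87%. The 8 members high in N2 replicate 1 were clec-91, clec-87, clec-140, clec-88, clec-153, clec-7, clec-36 and clec-31, of which those described next were chosen after their values were seen. clec-88 lay at 75.0, 27.3 and 33.3 FPKM in N2 and at 20.6, 17.4 and 26.96 FPKM in the mutant, and clec-91 at 40.3, 14.3 and 18.5 and at 12.3, 9.999 and 12.55 FPKM. Their log2 changes of -0.91 and -0.88 (limma adjusted p = 0.0499 and 0.0477) became -0.48 and -0.46 without that library (0.0677 and 0.0459). The adjusted p of clec-88 also lay between 0.0516 and 0.133 in 7 other alternatives, and that of clec-91 between 0.0529 and 0.119 in 6. Both were called after median-ratio scaling (limma adjusted p = 0.00904 and 0.00876) and quantile normalisation (0.0208 and 0.00854). The same held with the replicate number as a block (0.0142 and 0.0115) and without N2 replicate 2 (0.0243 and 0.0169). clec-87 lay at 168, 58.3 and 88.02 FPKM in N2 and at 56.2, 52.0 and 62.9 FPKM in the mutant and did not pass the test (limma adjusted p = 0.0842), though it fell after median-ratio scaling (0.0158), with the replicate number as a block (0.0275) and without N2 replicate 2 (0.0127). The germline markers summed to 1032, 540 and 725 FPKM in the N2 libraries, in the same order, and to 928 to 1022 FPKM in the mutant, and their part in these members was not tested. All 3 genes share exon sequence with another gene.

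clec-140 had a large but unsteady change. It lay at 2.36 FPKM in N2 replicate 1 and was listed at 0 in the other N2 libraries, and it lay at 1.20, 11.98 and 7.21 FPKM in the mutant, so the genotypes overlapped. The log2 change was 2.04 with an SE of 0.66 (limma adjusted p = 0.0302), and 0.109 and 0.0915 without N2 replicates 2 and 3, 0.093 and 0.0686 without mutant replicates 2 and 3, 0.0585 after quantile normalisation and 0.0695 with no filter. The gene was chosen after its values were seen, and its exons overlap those of T05A7.3 and hmg-11 on the same strand.

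Several lectins outside the C-type family fell. The list held the galectin genes lec-1 to lec-12, which bind galactose-containing sugars, and the chaperone lectins calnexin (cnx-1) and calreticulin (crt-1). All 14 were tested, and 8 fell and 1 rose, where 15% of all tested genes fell and 34.6% rose. Their median log2 change was -0.55, beside 0.24 for all tested genes. lec-9 fell from 367 ± 46.7 to 166 ± 10.3 FPKM and lec-11 from 39.6 ± 7.57 to 11.5 ± 0.867 FPKM (limma adjusted p = 0.000137 and 7.06e-05). lec-5 and lec-12 fell by 0.86 and 0.74 log2 units, and lec-4, chosen after its value was seen, was the rise. The rise of lec-4 was lost after median-ratio scaling, and without N2 replicate 3, mutant replicate 1 or mutant replicate 3.

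Of 31 tested regulators of intestinal defence genes 8 rose and 7 fell, beside 34.6% and 15% of all tested genes, and these counts are not read as a result about the list. Of the p38 cascade, the adaptor tir-1 fell (log2 change -0.43, limma adjusted p = 0.0341), while for the kinases nsy-1, sek-1 and pmk-1 the adjusted p-values were 0.744, 0.416 and 0.678. The values of pmk-1 were low and uneven, at 2.83, 3.18 and 0.586 FPKM in N2 and 2.45, 0.0940 and 2.81 FPKM in the mutant. With an SE of 0.51 its test does not show that pmk-1 was unchanged. The transcription factor gene atf-7, downstream of PMK-1, rose by 0.56 log2 units (limma adjusted p = 0.00491). The phosphatase gene vhp-1, which acts against PMK-1, rose by 0.47 log2 units (limma adjusted p = 0.0298). The BMP ligand gene dbl-1 rose from 5.74 ± 0.381 to 10.2 ± 0.227 FPKM (limma adjusted p = 0.00194). Its receptor gene daf-4 and the Smad gene sma-4 rose by 0.47 and 0.63 log2 units (limma adjusted p = 0.0337 and 0.00703). The listed genes sma-6, sma-2 and sma-3 of the same pathway did not pass the test. Their log2 changes were -0.31, -0.14 and 0.04 (limma adjusted p = 0.126, 0.55 and 0.853), and for sma-6 every mutant library lay below every N2 library. Not all of the rises of atf-7, vhp-1, dbl-1, daf-4 and sma-4 held after median-ratio scaling. That scaling left fewer rises in the whole list, as given below. Apart from elt-7, fshr-1, nhr-8 and egl-5, the regulators named here were chosen after their values were seen.

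The intestinal GATA factor genes elt-7 and elt-2 fell, elt-7 from 15.8 ± 2.24 to 7.17 ± 1.59 FPKM and elt-2 from 28.7 ± 1.68 to 20.5 ± 0.908 FPKM (limma adjusted p = 0.00152 and 0.012). The receptor gene fshr-1, needed for normal resistance to pathogens, fell by 1.06 log2 units and the nuclear receptor gene nhr-8 by 1.21. The Hox gene egl-5 and the beta-catenin gene bar-1, both known to act on clec-60, fell by 1.11 and 0.39 log2 units. Their limma adjusted p-values were 0.000179 and 0.0489, so that of bar-1 lay close to the threshold. Median-ratio scaling gave 2 higher and 12 lower in this list and quantile normalisation 5 higher, so the balance depends on the scaling. The rises numbered 5 without N2 replicate 2 or mutant replicate 2, and the falls 4 without mutant replicate 1 or 3.

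**Figure D5:**
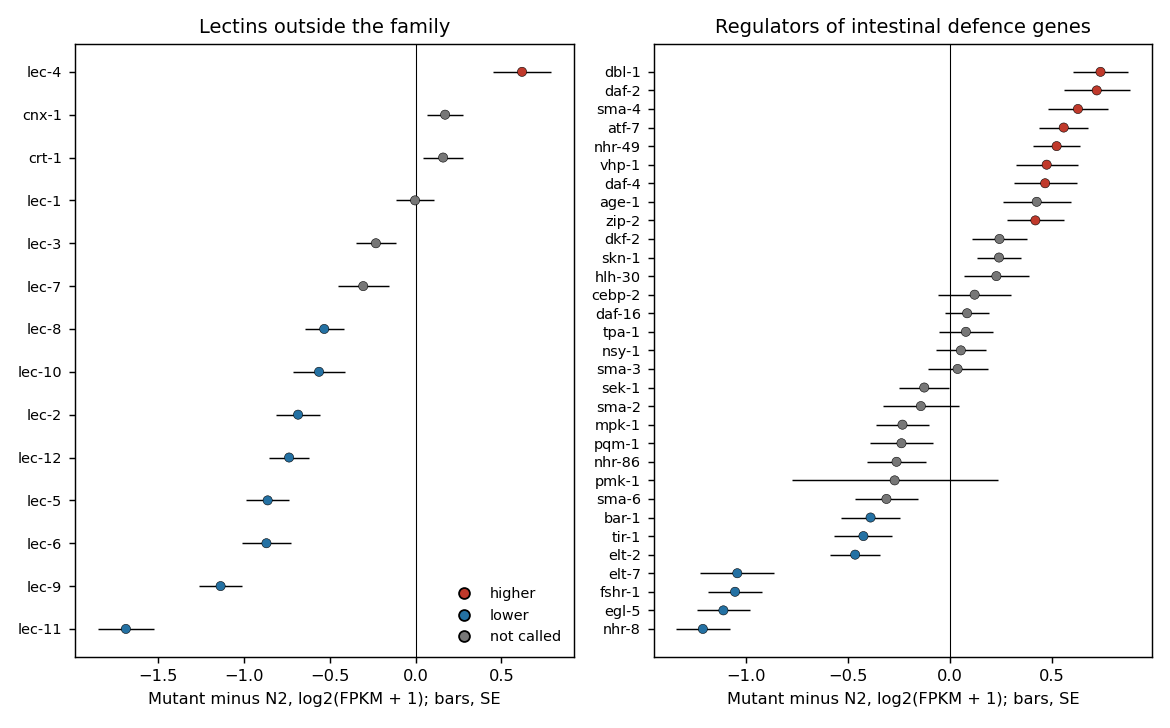
Difference of mutant from N2 in log2(FPKM + 1) (x axis), with SE bars, for 14 lectin genes outside the family and 31 regulators of intestinal defence genes (y axis). Red points rose, blue points fell and grey points did not pass the test. The 8 falls among the lectins are all of galectin genes.

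Markers of tissue and stage also moved with genotype, and their part in the lectin values was not tested. Their counts stand beside the 34.6% of all tested genes that rose and the 15% that fell. In these bulk samples fewer cells of a type and less RNA per cell cannot be told apart. Of 18 tested intestine markers 12 fell and 3 rose, with summed levels of 7119 to 9367 FPKM in N2 and 9285 to 11220 FPKM in the mutant, where asp-1 is the largest. All 9 adult yolk and cuticle genes fell, from sums of 3254 to 5308 FPKM in N2 to 26.7 to 67.3 FPKM in the mutant, a low level for libraries labelled as adults. Pharynx markers rose in 12 of 13 (99.0 to 136 FPKM against 451 to 545 FPKM) and hypodermis markers in 9 of 12, with 2 falls (1030 to 1434 against 2452 to 2509 FPKM). Of 13 neuronal markers 5 rose (293 to 318 against 365 to 393 FPKM), a share near that of all tested genes, and of 10 muscle markers 6 rose (3480 to 4071 against 4247 to 4490 FPKM). The pharynx rises include ceh-22 and the neuronal rises cat-2, which passed the filter through the mutant libraries alone and so had to differ. Among germline markers 8 of 16 rose and 1 fell, and 7 of 14 sperm markers rose (449 to 715 against 650 to 856 FPKM). The sperm rises were all of the listed spe and fer genes, and none of the listed msp, ssp and nspd genes passed the test. Several of these counts moved by over 1.5 times. Germline rises numbered 13 without N2 replicate 1 and 5 without N2 replicate 2 or 3, mutant replicate 1 or 3, with no filter or after median-ratio scaling. Intestine rises numbered 1 with median-ratio scaling, and also when N2 replicate 1, N2 replicate 2 or mutant replicate 1 was left out, and neuronal rises 2 or 3 under 5 alternatives. No marker was listed at 0 in all libraries.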

How the data were processed

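The authors deposited a single table of normalised expression values, taken here to be FPKM, since the values are not whole numbers and sum to 659249 to 687573 per library. Neither header nor labels name the unit or the step that made it. Depth, and so the precision of low values, is unknown. Per the submitters' processing notes, fastp was used and the build was WBcel235; aligner, counter, annotation and strand setting are not stated there. RefSeq locus tags gave symbols and positions for 19959 rows, and exon overlaps came from Ensembl release 115 models of the same build. RefSeq lists 25 further clec genes, all pseudogenes, which are not analysed here.

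The fit used limma 3.58.1 in R 4.3.3 on log2(FPKM + 1), with genotype as the only term and a mean-variance trend, and was tested on simulated data. All tests were two-sided. Members and lists were chosen with earlier results of these data known. Named members are clec-70, clec-71 and clec-17, the 10 largest rises and falls with no overlap between genotypes, the 5 highest members per genotype, members with published roles, members of the runs that hold a largest change, and up to 4 genes per other list. Alternatives changed the pseudocount, filter, scaling, trend, replicate block and the libraries kept.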

Additional observations from a re-analysis of the deposited data

How the results depend on the processing

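The counts and median of the family were recomputed under 14 alternatives. With at least 5 FPKM required, 59 members were tested, 27 rose and 18 fell, and the median log2 change was 0.27. The median was 0.0705 with no filter, 0.15 with median-ratio scaling and 0.17 with quantile normalisation. Leaving out each library in turn gave 27 to 50 rises, 21 to 27 falls and medians from 0.16 to 0.48. Without any 1 mutant replicate 86 members passed the filter, and 14 of the 49 rises were not tested, since genes present in the mutant alone then reach it in at most 2 libraries. A further 7, 2 and 8 rises were tested but not called without mutant replicates 1, 2 and 3, which gave 28, 34 and 27 rises. clec-70 and clec-71 were then not tested. Of the 49 rises, 34 were called in every alternative that tested them, and of the 29 falls, 21. Only 16 of those 34 rises and 16 of those 21 falls were tested in every alternative. The others could not lose their call where they were not tested. No named member reversed. Same-numbered libraries did not deviate together (correlations 0.0097, -0.074 and -0.28), and with the replicate number as a block 48 members rose and 27 fell. Depth is unknown, so the precision of values near 1 FPKM cannot be given.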
